A study of Neocallimastix californiae and Anaeromyces robustus with 43 samples.

Results

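Neocallimastix californiae (strain label G1) is an anaerobic fungus from the gut of plant-eating mammals. Its response to reed canary grass was measured by RNA sequencing of whole-organism RNA. The comparison sets 3 libraries from cultures on Reed Canary Grass against 3 libraries from cultures on Glucose. These are 6 of the 43 libraries of the series and 6 of the 23 of this fungus, and the carbon source given in the sample titles chose them. The fungus, the medium and the temperature were the same on both sides: about 10 ml of Medium C at 39 °C, harvested in exponential growth at a gas pressure of at least 5 psi. The labels give no genotype change, no other agent and no statement on whether replicates came from separate cultures, so a p-value here reflects only how far these libraries differ, and some of that may be technical.

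Reed canary grass is a lignocellulosic substrate, in which cellulose is embedded in hemicellulose and lignin, whereas glucose is taken up directly. Anaerobic gut fungi penetrate plant particles with their rhizoids and secrete large sets of cellulases, hemicellulases and esterases, many of them held together in extracellular complexes called cellulosomes. Free glucose is known to lower the expression of many plant cell wall enzymes in fungi. Transcripts carry only locus identifiers in the deposited tables, with no gene name or role beside them. Which of them encode such enzymes was not examined.

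The 3 reed canary grass libraries held 2905704, 4509104 and 4318783 expected counts, against 3334212, 10816458 and 4686227 in the 3 glucose libraries. Reed canary grass replicate 1 was the shallowest of the 6 and stood apart from its group. Across tested transcripts its rank correlation with replicates 2 and 3 was 0.91 to 0.915, where those correlated at 0.959 with each other. It lay as close to the other grasses, at 0.893 to 0.924 with switchgrass and 0.887 to 0.924 with corn stover libraries. The glucose libraries correlated at 0.93 to 0.971. The counts of calls against glucose and their split by abundance are given with and without replicate 1. Most other results include it. No pair of replicates agreed within sampling noise: the chi-square statistic per degree of freedom was 3.56 to 11 among reed canary grass libraries and 4.35 to 31.6 among glucose libraries.

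Growth on reed canary grass changed transcripts in both directions, and the direction went with abundance. Of 14800 tested transcripts, 2039 were called higher on reed canary grass (13.8%) and 3054 lower (20.6%), so 34.4% differed from glucose (edgeR quasi-likelihood test, Benjamini-Hochberg adjusted p under 0.05). The transcripts called higher had a median mean level of 27.1 CPM over all 23 libraries, and those called lower had 7.02 CPM, where CPM is the count scaled to library size with TMM factors, which correct for the composition of each library. Their median log2 fold changes, reed canary grass over glucose, were 1.28 and -1.99. RNA came from whole cultures, so fewer cells of a life stage and less RNA per cell cannot be told apart. Calls of at least 8-fold were 370 higher (2.5%) and 481 lower (3.25%), and calls of at least 32-fold were 139 higher and 87 lower. In TPM, which corrects for transcript length and has the same total in each library, the 3 grass libraries lay wholly above the 3 glucose libraries for 1285 tested transcripts (8.68%) and wholly below for 6609 (44.7%), 53.3% in all. Of the 2039 called higher, 1233 lay wholly above in TPM, and of the 3054 called lower, 3018 lay wholly below. In CPM, 1918 of the 2039 lay wholly above and 2920 of the 3054 wholly below, a separation that the calls themselves favour. The share over all tested transcripts was not counted in CPM, so these CPM counts are only a description.

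The balance of higher and lower calls depended on scaling and on 1 library, but no call turned round. Libraries of reed canary grass had TMM factors of 0.775 to 1.03, against 1.13 to 1.37 for glucose. When library size alone set the scale, 1172 were called higher and 5120 lower, and the median log2 fold change of all tested transcripts was -0.577 in place of -0.163. Other settings lay nearer to balance. DESeq2 called 2361 higher and 2677 lower, and edgeR with the DESeq2 size factors 2339 and 2685. With only the reed canary grass and glucose libraries in the fit, 2227 were higher and 2351 lower. Without reed canary grass replicate 1 the calls were 2467 higher and 2051 lower, of which 1978 and 1998 were also called in the full set. Without glucose replicate 2, the deepest library, they were 1395 and 1984. In none of the other fits to transcripts did a transcript called here pass in the opposite direction.

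**Figure D1:**
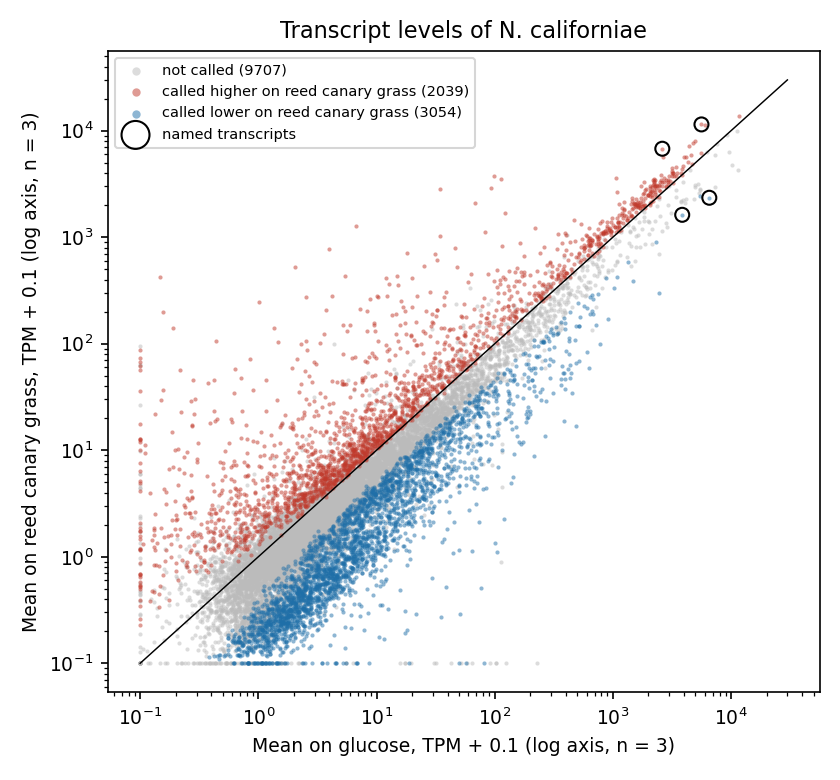
Mean level on reed canary grass (vertical) against mean level on glucose (horizontal) for the 14800 tested transcripts, in TPM with 0.1 added, on log axes, n = 3 libraries each. Red marks the 2039 transcripts called higher and blue the 3054 called lower on reed canary grass, circles mark the 4 transcripts named in the text, and the line marks equal levels. The blue points spread over low and middle levels, and red points fill the upper end above 1000 TPM.

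Transcripts were split into 10 bins of 1480 by mean CPM over all 23 libraries. That mean takes in the compared libraries, so bin and direction are not independent, and the size of this effect was not tested. The most abundant bin (82.8 CPM and above) had 600 called higher and 253 lower, which is 40.5% and 17.1% of it. The 5 least abundant bins, up to 6.79 CPM, had 402 called higher (5.43%) and 1500 lower (20.3%). The share called lower was 17.1% to 23.4% in each bin, while the share called higher was 3.99% to 6.49% in the 5 least abundant bins and grew above them. Counts per transcript also grow along the bins, and their part in this result was not tested. Without reed canary grass replicate 1 the top bin had 612 called higher and 184 lower, the 5 least abundant bins had 581 and 983, and the share called lower was 10.8% to 16.1%. With library size alone it had 437 higher and 536 lower, so its balance turned, but its share called higher was again the highest of the 10 bins, at 29.5%, with 2.91% in the least abundant. The 5 least abundant bins then had 229 called higher and 2256 lower, and the share called lower ran from 27.4% to 45.9%.

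**Figure D2:**
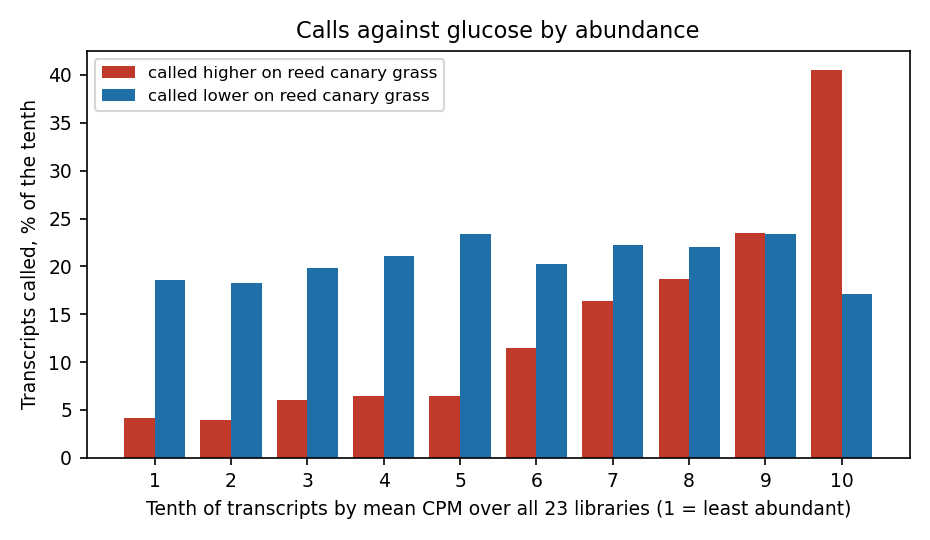
Share of transcripts called higher (red) and lower (blue) on reed canary grass against glucose, in percent of each bin of 1480 transcripts, ordered by mean CPM over all 23 libraries. The red bars run from 3.99% to 40.5% and the blue bars stay between 17.1% and 23.4%.

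Many of the most abundant transcripts were called higher on the grass. Of the 100 transcripts with the highest mean TPM on reed canary grass, 81 were called higher and 0 lower, and of the 100 highest on glucose 58 were called higher and 5 lower. The 2 lists shared 75 transcripts, 75% of each. Among the 20 highest, the lists shared 10, and 14 of the 20 on reed canary grass were called higher and 0 lower, while of the 20 on glucose 4 were called higher, 2 lower and 14 neither. A list ranked on the reed canary grass level favours transcripts that are higher there, and one ranked on glucose the reverse. Library size alone gave 68 higher and 8 lower for the 100 highest on reed canary grass. It gave 43 higher and 22 lower for the 100 highest on glucose.

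Locus57v1rpkm3974.36 gained more TPM than any other called transcript of a single-version locus whose libraries did not overlap. It stood at 10526, 12131 and 11730 TPM in the reed canary grass libraries, against 4875, 4432 and 7562 TPM in the glucose libraries. That the libraries did not overlap in TPM was a condition of choice for this transcript and those named after it against glucose. By mean TPM Locus57v1rpkm3974.36 ranked 2 on reed canary grass and 13 on glucose. The log2 fold change was 1.56 ± 0.27 (SE; edgeR adjusted p = 0.000202). Fold changes of the named transcripts come from counts scaled with TMM factors. They are therefore not the ratios of the TPM values listed beside them. Elsewhere it was low on maltose as well, at 5030 ± 837 TPM, and high on every other carbon source, from 10701 ± 1568 TPM on corn stover to 16003 ± 308 TPM on alfalfa stems (SD, n = 3 each).

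Locus10v1rpkm7345.70 made the second largest gain. It had 6857, 6235 and 7236 TPM on reed canary grass, against 2453, 2529 and 2882 TPM on glucose. The groups lay far apart, and its rank by mean TPM was 10 on reed canary grass and 73 on glucose. The log2 fold change was 1.88 ± 0.32 (SE; edgeR adjusted p = 0.000194). Its level was also high on the other plant materials, at 9602 ± 2159 TPM on switchgrass (n = 2), 9760 ± 1558 TPM on corn stover and 7652 ± 2522 TPM on alfalfa stems (n = 3 each), and lower on Avicel, a microcrystalline cellulose, at 3936 ± 647 TPM. Reed canary grass differed from cellobiose in this transcript (log2 fold change 1.30 ± 0.31, edgeR adjusted p = 0.00646), while against Avicel the adjusted p was 0.0618.

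Locus17v1rpkm6756.51 lost the most TPM. It stood at 3002, 1809 and 2233 TPM on reed canary grass, against 5890, 5932 and 7837 TPM on glucose. The log2 fold change was -0.78 ± 0.22 (SE; edgeR adjusted p = 0.0104), a smaller fall than in TPM. In CPM the transcript stood at 128.5 to 205.4 on reed canary grass, against 222.8 to 390.3 on glucose. It is a very short transcript, with an effective length 0.0235 times that of the median transcript, so its level rests on 462 to 724 counts per reed canary grass library and 1030 to 3278 per glucose library. The call was lost in 7 of the 17 other settings. Among them were edgeR with only the 6 compared libraries in the fit (adjusted p = 0.0955), without reed canary grass replicate 2 (0.0672) and without glucose replicate 3 (0.0823).

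Locus44v1rpkm4660.41 came next, at 1776, 1470 and 1627 TPM on reed canary grass, against 3568, 3293 and 4732 TPM on glucose. The libraries did not overlap in TPM, but on the CPM scale the highest grass library (1321 CPM) lay above the lowest glucose library (1249 CPM). The log2 fold change was -0.72 ± 0.27 (SE; edgeR adjusted p = 0.0427), and DESeq2 did not call it (adjusted p = 0.0705). The call was lost in 13 of the 17 other settings, among them edgeR without reed canary grass replicate 1 (adjusted p = 0.0721), 2 (0.171) or 3 (0.124), without glucose replicate 1 (0.0613) or 3 (0.233), and with only the compared groups (0.148). Over all settings its log2 fold change ran from -1.15 to -0.41. Both transcripts that fell were also low on the other plant materials: Locus44v1rpkm4660.41 had 938 ± 176 TPM on switchgrass (n = 2), 1083 ± 65.2 TPM on corn stover and 1449 ± 199 TPM on alfalfa stems (n = 3 each).

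**Figure D3:**
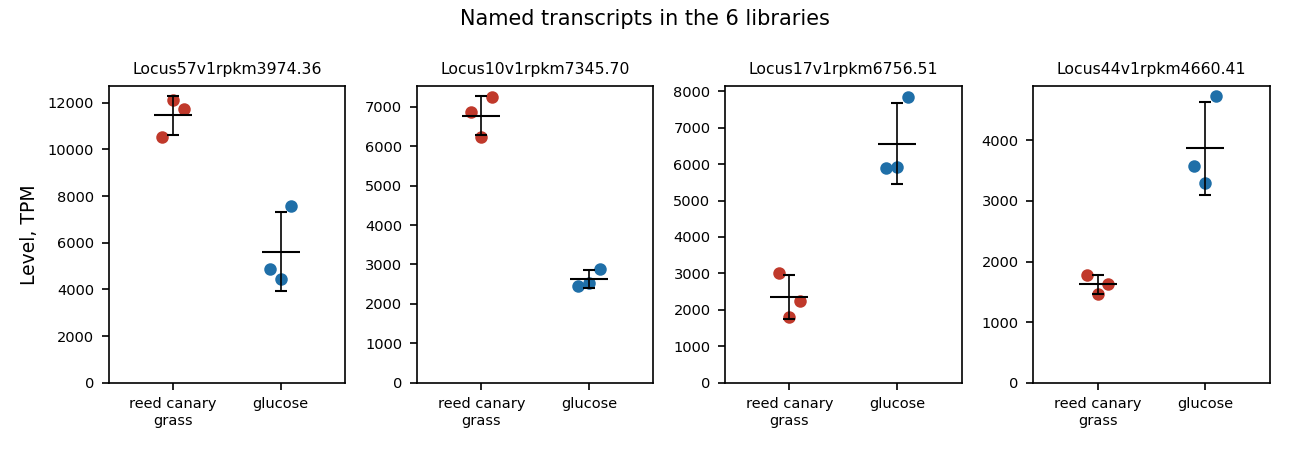
Level in TPM of the 4 named transcripts in the 3 reed canary grass libraries (red, left) and the 3 glucose libraries (blue, right). Points are libraries, the bar is the mean and the whiskers are 1 SD. That the groups do not overlap in TPM was a condition of choice. For Locus57v1rpkm3974.36 the range is 10526 to 12131 TPM on reed canary grass against 4432 to 7562 TPM on glucose.

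Among transcripts chosen by limits in TPM, the rises reached higher levels than the falls. Thresholds in TPM chose 3 sets from the 6 libraries, so their counts and folds are a description. In the first, 6 transcripts stood at 500 TPM or more in each reed canary grass library and at 50 TPM or less in each glucose library, and no transcript showed the reverse. Their levels were 581.8 to 3113 TPM on reed canary grass, against 1.2 to 47.3 TPM on glucose. Together they made up 0.69% ± 0.026 of TPM on reed canary grass and 0.0127% ± 0.0034 on glucose (SD, n = 3 each). A second set, at 100 TPM or more on reed canary grass and 10 or less on glucose, held 16 transcripts, and again none showed the reverse. In the third set, with limits of 10 and 1 TPM, 37 transcripts stood higher on reed canary grass, of which 36 were tested and called, and 13 stood lower, all called. The sets hold 55 different transcripts that stood higher and 13 that stood lower.

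The levels of these transcripts on the other carbon sources did not enter the choice. Of the 16 in the second set, 14 averaged 100 TPM or more on switchgrass and 14 on corn stover, but only 2 on alfalfa stems and 0 on Avicel, cellobiose or maltose. Their median of mean TPM was 209 on reed canary grass, 309 on switchgrass and 239 on corn stover. It was 9.34 on alfalfa stems, 15.1 on Avicel, 0.637 on cellobiose and 8.53 on maltose, beside 3.06 on glucose. On cellobiose 14 of the 16 averaged 10 TPM or less. Of the 6 in the first set, 5 averaged 500 TPM or more on switchgrass and 5 on corn stover. On alfalfa stems and Avicel 1 did, the same transcript in both, and on cellobiose the other 5 averaged 50 TPM or less.

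**Figure D4:**
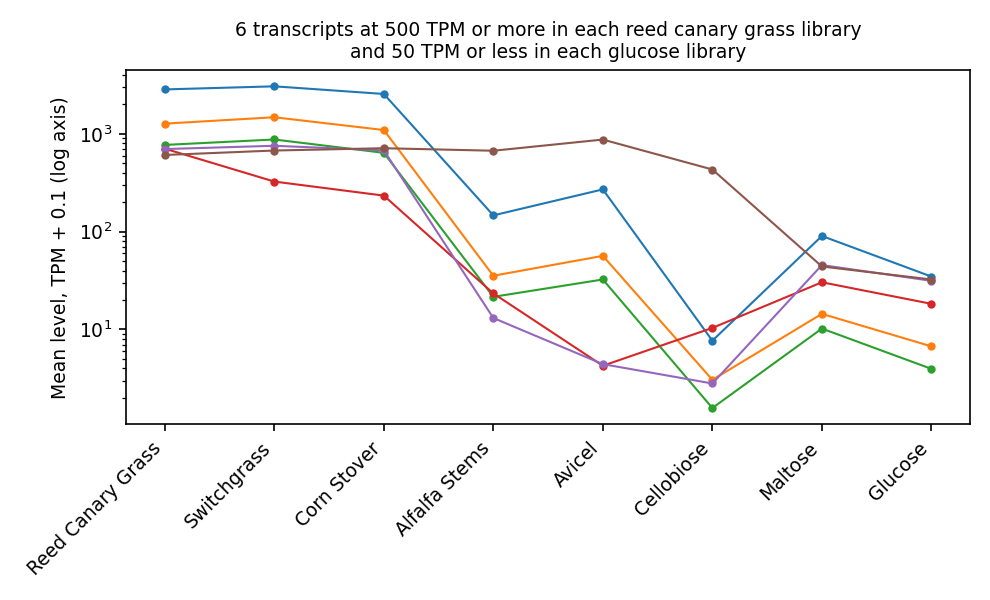
Mean level of the 6 transcripts of the first set on each of the 8 carbon sources, in TPM with 0.1 added, on a log axis; n = 3 libraries except 2 for switchgrass, and each line joins the means of 1 transcript. All 6 are at 608 to 2849 TPM on reed canary grass and at 3.85 to 34.6 TPM on glucose, and 5 of them drop to 50 TPM or less on cellobiose.

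Of the 37 transcripts of the third set that stood higher, 33 averaged 10 TPM or more on switchgrass and 33 on corn stover. On alfalfa stems 14 did, on Avicel 14, on cellobiose 7 and on maltose 2. The 13 transcripts of the third set that fell are described in the same way. They averaged 0 to 0.733 TPM on reed canary grass, against 12.4 to 81.9 TPM on glucose. On switchgrass and corn stover 9 of the 13 averaged 1 TPM or less. On cellobiose 10 averaged 10 TPM or more, on maltose 11, on Avicel 7 and on alfalfa stems 6. Their sum was 0.000318% of TPM on reed canary grass, 0.318% ± 0.035 on alfalfa stems, 0.213% ± 0.013 on Avicel, 0.25% ± 0.05 on cellobiose and 0.0506% ± 0.0043 on glucose (SD, n = 3 each). Single members weigh heavily in these sums: on alfalfa stems 1 averaged 1540 TPM, while the median of the 13 was 5.09 TPM there, 28.9 TPM on Avicel, 55.8 TPM on cellobiose and 35.0 TPM on glucose.

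Some transcripts were counted on 1 side only. In all, 61 transcripts had no count in any glucose library and at least 1 in each reed canary grass library. Of these, 27 passed the filter on low counts and were tested, and all 27 were called higher. A further 484 had no count on reed canary grass and at least 1 in each glucose library. Of those, 76 were tested and 61 called lower. The choice of these transcripts fixed their direction, and those tested passed the filter through libraries with counts, so the calls are no evidence. A count of 0 over the 18836866 counts of the glucose libraries allows up to 0.159 CPM, and over the 11733574 counts of the reed canary grass libraries up to 0.256 CPM (3 counts, counting error only). Most of these transcripts were sparse, with median mean levels of 1.97 TPM on reed canary grass for the 27 and 1.05 TPM on glucose for the 76. Of the 27, 21 had a count in every switchgrass library, 20 in every corn stover, 19 in every Avicel, 17 in every alfalfa stems, 10 in every cellobiose and 6 in every maltose library. Of the 61 called lower, 55 had a count in every maltose library, 40 in every cellobiose, 26 in every alfalfa stems, 18 in every Avicel, 16 in every corn stover and 9 in every switchgrass library.

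The transcripts called higher filled a larger part of the mRNA pool. They held 65.2%, 67.6% and 67.2% of TPM in the reed canary grass libraries, against 46.4%, 46.4% and 45.7% in the glucose libraries. Those called lower held 3.03%, 3.01% and 3.02% on reed canary grass, against 11.4%, 12.05% and 8.5% on glucose. These sets were chosen on these libraries, so their direction there is no evidence. The libraries of the other carbon sources were not part of this contrast, but entered the filter on low counts, the scaling and the shared estimate of spread. There the transcripts called higher held 71.9% ± 1.3 on switchgrass (SD, n = 2) and 70.8% ± 1.3 on corn stover (n = 3). They held 61.4% ± 3.31 on alfalfa stems, 54.6% ± 1.73 on Avicel, 50.5% ± 1.97 on cellobiose and 50.1% ± 2.94 on maltose (n = 3 each). The transcripts called lower held 2.02% ± 0.057 on switchgrass and 2.53% ± 0.26 on corn stover. They held 5.78% ± 0.24 on alfalfa stems, 6.34% ± 0.28 on Avicel, 8.61% ± 1.16 on cellobiose and 10.5% ± 1.56 on maltose. In these summed shares the libraries of both other grasses lay beyond those of reed canary grass, away from glucose, for both sets, and the means of the other 4 carbon sources lay between reed canary grass and glucose. Transcript by transcript the called-lower set did not follow its sum on corn stover: the median log2 ratio of mean CPM (0.5 CPM added), reed canary grass over corn stover, was -0.49, and 25.4% of the 3054 were above 0. Against switchgrass it was 0.08, with 56% above 0. For the called-higher set it was -0.31 against switchgrass and -0.11 against corn stover.

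**Figure D5:**
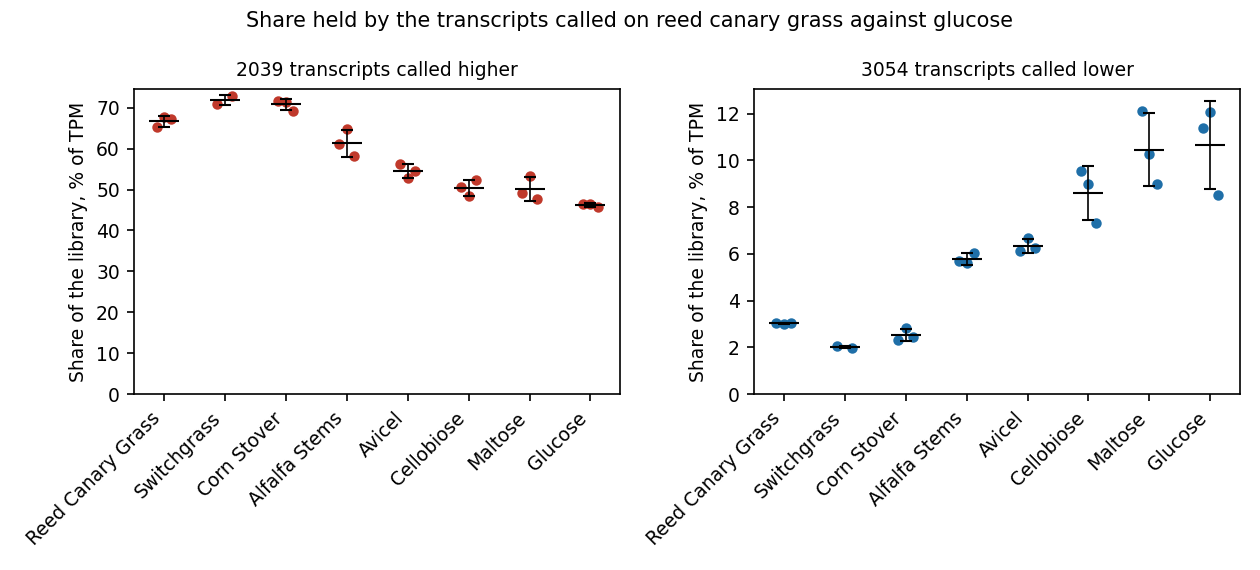
Share of TPM, in percent of each library, held by the 2039 transcripts called higher (left panel) and the 3054 called lower (right panel) on reed canary grass against glucose, by carbon source. Points are libraries, bars are means and whiskers are 1 SD. The share called higher is 65.2% to 67.6% on reed canary grass and 45.7% to 46.4% on glucose, and the share called lower is 3.01% to 3.03% on reed canary grass and 8.5% to 12.05% on glucose.

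Fewer transcripts made up the pool in the 3 reed canary grass libraries than in the 3 glucose libraries. In the reed canary grass libraries 820, 1038 and 989 transcripts held 90% of TPM, against 1470, 1694 and 1186 in the glucose libraries. The groups did not overlap, which gives an exact two-sided permutation p = 0.1, the smallest that 3 against 3 libraries allow. At the very top no difference was detected: the 10 most abundant transcripts held 9.40% ± 0.107 on reed canary grass and 9.33% ± 1.17 on glucose, and the 100 most abundant held 41.8% ± 0.411 and 40.2% ± 2.58 (SD, n = 3 each; exact permutation p = 1 and 0.4). Thinned to 2905685 counts each, the libraries showed 15603, 17366 and 17000 transcripts with a count on reed canary grass, against 18008, 18601 and 17915 on glucose, again without overlap (exact permutation p = 0.1). Replicate 1, the library that stood apart, was the lowest, and the other 2 grass libraries were still below each glucose library at that depth. Without thinning, where depth differs between libraries, the groups overlapped (exact permutation p = 0.2). The number of transcripts that hold 90% of TPM was not examined in other settings.

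Reed canary grass was then set directly against the other grasses, to see where it differs from them. Against switchgrass 43 transcripts were called higher (0.291%) and 85 lower (0.574%), 0.865% in all, in the same edgeR quasi-likelihood fit. Of these, 7 were at least 8-fold higher (0.0473%) and 10 at least 8-fold lower (0.0676%). Against corn stover 117 were called higher (0.791%) and 173 lower (1.17%), 1.96% in all, with 17 at least 8-fold higher (0.115%) and 18 at least 8-fold lower (0.122%). The 43 transcripts above switchgrass had a median of mean TPM of 13.6 on reed canary grass, 2.75 on switchgrass, 4.29 on corn stover and 25.4 on glucose. The 85 below switchgrass had 3.99 on reed canary grass, 10.0 on switchgrass, 8.01 on corn stover and 4.91 on glucose. The 117 above corn stover had 9.21 on reed canary grass, 2.83 on corn stover, 3.61 on switchgrass and 14.5 on glucose, and the 173 below had 3.36, 8.45, 5.64 and 3.22 on these carbon sources in this order. Glucose libraries were in neither contrast, though in the shared filter, scaling and spread, and for all 4 sets their median lay on the reed canary grass side of the other grass. This was not particular to glucose: the maltose medians did the same, at 27.6, 4.94, 16.0 and 3.83 TPM for the 43, 85, 117 and 173. For the 43 and 117, so did alfalfa stems (7.74 and 5.34), Avicel (10.6 and 9.33) and cellobiose (14.8 and 13.3). For the 85 and 173, Avicel did (9.29 and 7.07), cellobiose only for the 173 (10.4 and 7.41) and alfalfa stems for neither (14.5 and 11.5). Each set was chosen by the level on the other grass, which favours such a position for any further carbon source. The counts of calls against the other grasses rest on few libraries. Without reed canary grass replicate 3 they were 1 and 4 against switchgrass and 31 and 28 against corn stover. Without switchgrass replicate 1 they were 1 and 2 against switchgrass. With only the switchgrass and reed canary grass libraries in the fit, none passed and 1336 had an unadjusted p under 0.05 (DESeq2 on all libraries called 91 higher and 274 lower).

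No transcript was shown to be particular to reed canary grass. A transcript was asked to lie above, or below, each of the other 7 carbon sources, with the largest of its 7 one-sided edgeR p-values adjusted over all 14800 tested. This intersection-union test called 0 transcripts above and 0 below (0% each), with 51 and 67 at an unadjusted p under 0.05. With DESeq2 in place of edgeR it called 0 above and 1 below. That one is Locus470v2rpkm365.31, singled out after its values were seen, at 1.94 to 5.33 CPM on reed canary grass and 8.88 to 29.0 CPM on switchgrass, 16.4 to 21.9 CPM on corn stover and 37.7 to 100.4 CPM on glucose (adjusted p = 0.00806 with DESeq2 and 0.598 with edgeR). Its locus has more than 1 version, so its reads are shared with a sister transcript.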

How the data were processed

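The authors deposited, for N. californiae, a table of expected counts and a table of TPM per transcript and library, and the submitters' processing notes name RSEM, without a version. Libraries were made with a stranded poly(A) kit, per the labels' protocols. The aligner and reference: not given in the sources used here. There are 29649 transcripts from 27671 loci, of which 1671 have more than 1 version and share reads. Expected counts divide shared reads (10.2% of values are not whole) and were rounded. Columns were matched to samples by the sample descriptions, which name them.

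Transcripts were kept by filterByExpr (minimum count 10, minimum total 15), which left 14800 with 99.78% of counts. All 23 libraries entered 1 edgeR 4.0.16 quasi-likelihood fit (R 4.3.3, TMM, robust trended dispersion, a mean for each carbon source), so that small groups share 1 estimate of spread. The biological coefficient of variation was 0.294. P-values were adjusted by Benjamini-Hochberg over all tested transcripts and called under 0.05. Standard errors were taken from the fold change and its F statistic. The procedure was tested on simulated data. Shares and levels between transcripts use the deposited TPM, which moves with the composition of the pool. Floors for transcripts without counts cover counting error only. The ± values are SDs between libraries or SEs from the fit, and both take in spread between libraries.

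Named were the 2 called transcripts with the largest gain and the 2 with the largest loss of mean TPM, from single-version loci whose libraries did not overlap in TPM. Lists of plant cell wall enzymes, transporters and other genes that had been drawn up could not be matched and were not used. Members, rules and lists were chosen with earlier results of these data known. Alternatives were DESeq2 1.42.0, its size factors in edgeR, library size alone, no filter, a 2-fold test, the replicate number as a block, counts summed per locus, other sets of libraries and each library left out. The second fungus of the series is not analysed here.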

Additional observations from a re-analysis of the deposited data

How the results depend on the processing

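On reed canary grass against glucose, library size alone gave 1172 higher and 5120 lower, and a test against a 2-fold change 594 and 936 (1530 in all). Leaving out each library in turn gave 3379 to 5190 calls, 1395 to 2467 higher and 1984 to 3142 lower. With only the compared groups, and without each reed canary grass replicate in turn, a setting chosen after seeing the data, 1737 to 2560 were higher and 2599, 1853 and 1717 lower without replicates 1, 2 and 3. Counts summed per locus gave 2591 higher and 2471 lower.

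Against switchgrass DESeq2 gave 91 higher and 274 lower (365), library size alone 158 higher (220), the 2-fold test 1 and 2 (3), and only the compared groups 0 and 0. Each library left out gave 3 to 174 calls, 1 to 48 higher and 2 to 126 lower. Against corn stover DESeq2 gave 193 and 283 (476), library size alone 359 higher (478), and the 2-fold test 7 and 6 (13). Each library left out gave 59 to 358, 24 to 208 higher and 28 to 150 lower. Below each other carbon source DESeq2 gave 1. The causes were not tested.

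The difference in the share of the 10 most abundant transcripts, reed canary grass minus glucose, was 0.0707 percentage points, 1.49 with counts, -0.32 with TPM summed per locus and -0.396 to 0.724 with a library left out (-0.115 without glucose replicate 1). For the 100 most abundant it was 1.59, and 4.46 with counts.

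Replicate numbers were shared between carbon sources, and the values do not settle whether they paired the samples. Deviations from the group mean correlated at 0.295, 0.0589 and 0.246 between same-numbered libraries. Between differently numbered reed canary grass and glucose libraries they correlated at -0.283 to 0.0758. With the replicate block 2131 were higher and 3204 lower against glucose, 51 and 89 against switchgrass, and 160 and 234 against corn stover. Reed canary grass replicate 1 had the lowest depth of the 6 libraries, and how depth limits calls per library was not tested.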

Other observations

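Versions of 1 locus did not always move together. Of 697 loci with more than 1 tested version, 152 had a version called higher on reed canary grass and none lower, 140 had one lower and none higher, 396 had none called, and 9 had versions called in opposite directions. In these 9 loci the log2 fold changes, reed canary grass over glucose, of the version that rose and of the one that fell lay between 1.97 and 7.51 apart. In 1 of them the rising version averaged 353.5 TPM on reed canary grass and 15.2 TPM on glucose, and the falling version 3.88 TPM on reed canary grass and 29.7 TPM on glucose. Versions share reads, so each such value is uncertain, and this count has no test.

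Transcript length differed between the sets. The deposited expected count over TPM gives the effective length of a transcript relative to others, with a median spread between libraries of 0.3%. Relative to the median transcript it was 0.844 for the transcripts called higher, 1.05 for those called lower and 0.93 for all tested, with a value for 97.4%, 99.3% and 96.0% of them. Among 4 bins by length, in the shortest 18.8% were called higher and 15.2% lower on reed canary grass, and in the longest 10.9% and 26.6%. The part of length in the calls was not tested.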
